A study of Mus musculus with 45 samples.

Results

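Antisense transcripts that no annotation lists were described across a long-read RNA sequencing study of mouse neural progenitor cells on their way to pluripotency. The members were the transcripts with a TPM value whose structural category in the classification made before filtering was antisense, meaning that they lie on the strand opposite an annotated gene. There were 3432 of them among 276608 transcripts with a TPM value, from 1908 antisense genes. Before the authors' filter the classification held 90614 antisense transcripts, of which 3.79% were kept, against 14.7% of all categories. Each antisense gene is named after the gene it faces, and 3279 members carried the symbol of such a sense gene. For 348 members the name and the classification gave different sense genes, and the name was used throughout.

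The study held 45 libraries from mouse neural progenitors, embryonic stem cells and cells under reprogramming. The progenitors were derived from the O4G line, R1 embryonic stem cells with a GFP reporter under the Oct4 promoter, and were either wild type (WT) or of the genotype OKMS-Luciferase-AS or OKS-Luciferase-AS. OKMS and OKS are sets of reprogramming factors that differ by Myc in name, and the labels do not state what the luciferase element is for. Of the libraries 22, called R9 after their flow cells, were direct cDNA made from RNA enriched for poly(A). The other 23, called R10, were made by PCR of cDNA from total RNA, without that enrichment.

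In R10, 4 progenitor libraries in progenitor medium (2 WT, 1 OKMS, 1 OKS, day 0) were compared with 7 wild-type stem cell libraries in 2i-LIF, which holds stem cells in a naive state with LIF and inhibitors of GSK3 and MEK. The stem cell libraries were 2 of O4G, 3 of R1 and 2 of R1-Clone3, a single clone. In R9, 4 progenitor libraries were compared with 2 stem cell libraries, 1 of O4G and 1 of R1. Wild-type progenitors were also sampled after 2 days in serum with LIF and doxycycline, with 2 libraries in R10. The R9 time course had 1 OKMS and 1 OKS library at each of days 0, 2, 4, 6, 10, 14 and 20, in serum with LIF and doxycycline after day 0. The R10 reprogramming libraries of days 2 to 18 enter no test, only values such as the share of the library, the detection counts and the mean level over R10. The same holds for 3 R9 libraries in 2i-LIF in place of serum, OKMS at days 14 and 20 and OKS at day 20. In R10 the day 18 libraries were 2 in 2i-LIF and 2 in serum, 1 OKMS and 1 OKS each. The labels do not say that libraries of a group came from separate cultures, so p-values measure the spread between these libraries, which may be technical. Nor do they say that R9 and R10 libraries of the same condition came from separate cultures or RNA. All libraries descend from R1-derived lines.

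Antisense RNA is transcribed from the opposite strand of a gene. It can start near the promoter of the gene it faces and run away from it, start inside the gene, or start past its end and run into it. Some antisense RNAs are known to affect the gene they face, by transcription through its promoter, by chromatin changes or by pairing with its RNA, while others have no known effect. In long-read cDNA data the strand of a read is set from primers, the poly(A) tail and splice sites, and whether the authors' counting used strand is not given in the sources used here. Reads of a gene and of its antisense partner can therefore not be told apart with certainty.

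The sequences shown first are splice sites of members whose introns lie inside exons of the sense gene, because splice sites are among the features that set the strand of a read. Each is 20 bases of the antisense strand in GRCm38, read from the GENCODE transcript of the facing gene, and capitals mark the first and last dinucleotides of the intron. Sox9_AS has its intron of 177 bases in the coding sequence of Sox9, at chr11:112785365-112785384 and chr11:112785188-112785207 on the minus strand.
Sox9_AS donor: gtaagtgaagGTggagtaga
Sox9_AS acceptor: ctcgctgtAGtggctggggc
Slc2a3_AS has an intron of 173 bases in an untranslated part of Slc2a3, at chr6:122728016-122728035 and chr6:122728189-122728208 on the plus strand.
Slc2a3_AS donor: gccacagggaGTggagagtt
Slc2a3_AS acceptor: agtggaggAGgggacagttg
Kdm6b_AS has an intron of 450 bases in an untranslated part of Kdm6b, at chr11:69398560-69398579 and chr11:69399010-69399029 on the plus strand.
Kdm6b_AS donor: cgaaaataggGTaggaatgg
Kdm6b_AS acceptor: caggacgtAGgggaggggag
Ncan_AS has the less common GC donor, at chr8:70093905-70093924 and chr8:70094379-70094398 on the plus strand.
Ncan_AS donor: ccagactgagGCcctgtcca
Ncan_AS acceptor: ggctcatgAGcttcctatag
All introns of the members were marked canonical in the classification, and no member carried its mark for template switching. These marks were read in members that had passed the authors' filter, so they are not independent support for them.

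The 20 bases after the 3′ end are shown for 3 members because reverse transcription can start at an A-rich stretch inside an RNA as well as at a poly(A) tail. Capitals mark A, and the letters are those of the deposited classification. The most A-rich member had 55.0% A there, and Kdm6b_AS was at that limit.
Kdm6b_AS, chr11:69399352-69399371, plus strand: AAAAAAAAAggAggtccAgg
Sox9_AS, chr11:112785124-112785143, minus strand: tcgctgctcAgcgtggtgAg
Slc2a3_AS, chr6:122728565-122728584, plus strand: AtgcccAgAgcAAAgtgAcA
In Sox9_AS the share was 10.0% and in Slc2a3_AS 40.0%. The polyadenylation signal AATAAA was listed for 1195 members (34.8%) and ATTAAA for 416 (12.1%).

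For antisense transcripts that start close to a sense promoter, the shared start region is shown, on the sense strand in GRCm38.p6 from RefSeq. Capitals run from the antisense 5′ end to the sense start, so both RNAs leave the capital stretch in opposite directions. These examples were chosen after their values were seen, as the members with a RefSeq window and the largest called differences. Eef2k encodes a kinase that slows translation elongation, Hrh1 a histamine receptor and Fyn a kinase of the Src family.
Eef2k, chr7:120843350-120843600, plus strand: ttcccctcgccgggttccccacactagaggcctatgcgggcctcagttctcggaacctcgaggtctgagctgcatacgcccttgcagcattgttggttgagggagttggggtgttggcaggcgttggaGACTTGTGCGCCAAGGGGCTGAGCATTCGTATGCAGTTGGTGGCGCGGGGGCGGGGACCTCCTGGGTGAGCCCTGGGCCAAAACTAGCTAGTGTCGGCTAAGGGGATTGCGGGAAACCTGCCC
Hrh1, chr6:114397836-114398086, plus strand: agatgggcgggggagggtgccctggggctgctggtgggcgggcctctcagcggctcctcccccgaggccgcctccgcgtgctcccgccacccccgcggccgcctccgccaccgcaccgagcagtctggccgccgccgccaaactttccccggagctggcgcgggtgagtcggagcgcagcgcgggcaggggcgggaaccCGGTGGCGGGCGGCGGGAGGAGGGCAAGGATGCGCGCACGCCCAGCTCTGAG
Fyn, chr10:39369549-39369799, plus strand: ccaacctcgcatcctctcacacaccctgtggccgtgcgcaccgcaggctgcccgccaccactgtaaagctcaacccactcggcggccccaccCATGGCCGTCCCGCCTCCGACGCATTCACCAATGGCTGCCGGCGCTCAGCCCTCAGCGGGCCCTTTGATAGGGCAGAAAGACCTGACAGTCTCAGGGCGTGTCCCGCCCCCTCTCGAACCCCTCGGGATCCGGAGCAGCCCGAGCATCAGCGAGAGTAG
The antisense 5′ end lay 122 bases upstream of the RefSeq sense start at Eef2k, 51 at Hrh1 and 158 at Fyn.

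All members kept by the filter were spliced, most of them with 2 exons, and the most common position was inside the gene they faced. Their length ran from 176 to 12457 bases with a median of 809.5, and 2632 (76.7%) had 2 exons. Only 585 (17.0%) were predicted to be coding. By position, 1664 members (48.5%) had both ends inside the sense gene. A further 801 (23.3%) were head-to-head, with the 5′ end within 1000 bases of a start of the sense gene, and 363 (10.6%) were tail-to-tail, starting past the sense gene's 3′ end and ending inside it. Of the remaining members, 415 had another arrangement and 189 could not be placed.

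Head-to-head members had the most 5′ support of the position classes. Their 5′ end lay within a CAGE peak, a mapped transcription start, for 64.5% of members, against 39.1% of tail-to-tail members and 28.2% of those within the sense gene. Over all members the share was 38.5%, while transcripts that match an annotated one in full reached 91.0%. Of the head-to-head members, 254 began upstream of the nearest annotated start of a transcript of the sense gene and 547 at or past it. All 801 overlapped the annotated sense gene, so the 254 were upstream of that start and not of the whole gene. In 74 head-to-head members the 5′ end fell in a RefSeq promoter window of 57 sense genes. The 68 upstream of the RefSeq start lay a median of 71.5 bases from it. These windows reach further upstream of the RefSeq start than past it. The number upstream and the short distance are thus in part set by the window. The windows of the 57 genes held a median of 27 CG dinucleotides, against 20 in the 13099 windows of genes tested in R10. The letters TATAAA on either strand occurred in 7.02% of them and in 7.01% of the windows of tested genes.

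Many placed members ran through the sense exons. Of 3243 placed members, 933 (28.8%) had over 90% of their exon bases on sense exons, and 1097 (33.8%) had none there. An intron that lay wholly inside 1 sense exon, as in Sox9_AS, was present in 831 (25.6%). The facing genes were protein-coding for 1510 antisense genes and lincRNA for 80. On the mitochondrial chromosome, where both strands are transcribed in full, there were 164 members in 8 antisense genes.

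Single members were rare in single libraries. A member was above 0 in a median of 8 libraries, 9 members were above 0 in all 45, and 82 never reached 1 TPM. There were 420 members above 0 in R10 libraries alone and 201 in R9 libraries alone. R9 libraries had 428 to 860 members above 0 and R10 libraries 293 to 1317. Library depth ran from 448250 to 4245818 reads.

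In R9 the members together made up 0.876% to 1.48% of the TPM of a library (median 1.12%). In R10 the range was 1.06% to 7.99% (median 3.05%), and a single member carried most of it. This was Jarid2_AS.G13559.9, an RNA of 269 bases on the minus strand at chr13:44857612-44869834 that faces Jarid2, a cofactor of the Polycomb complex PRC2, and shares no base with a Jarid2 exon. Without the antisense transcripts of Jarid2 the R10 share was 0.716% to 1.45% (median 1.05%). TPM depends on transcript length as well as on reads. In the R9 OKMS progenitor library Tpt1_AS.G16869.5 had 54.6 TPM with its antisense gene at 6.73 CPM. There the longer Copz1_AS.G19554.12 had 54.9 TPM with its antisense gene at 18.8 CPM. The TPM share of a short RNA such as Jarid2_AS.G13559.9 is therefore not its share of reads, which is not given here. For the antisense genes together the share of reads was smaller than that of TPM. Antisense genes held 0.688% to 0.886% of the reads in R9 (median 0.779%) and 0.875% to 1.71% in R10 (median 1.24%).

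Jarid2_AS.G13559.9 stood at 31398, 31758, 53812 and 57435 TPM in the R10 progenitors. In the R10 stem cells it ranged from 12037 to 62153 TPM with a median of 19128. It was listed at 0 in 3 R10 reprogramming libraries, OKMS at days 2 and 10 and OKS at day 2. In R9 its highest value was 32.2 TPM among progenitors and 23.3 TPM among stem cells. Every R10 progenitor and stem cell library was thus above every R9 library of these states. The R10 values of the states overlapped, with the highest stem cell library, R1 without a number, above every progenitor library. The difference of stem cells minus progenitors was -1.05 on the log2(TPM + 1) scale (SE 0.36, adjusted p = 0.0265, limma), and +0.57 with that R1 library as the only stem cell library. The call was lost without O4G library 2 (-0.95), R1-Clone3 library 2 (-0.92), WT progenitor library 2 (-0.93) or WT progenitor library 3 (-0.90). Jarid2 itself was higher in stem cells, at 198 to 251 CPM against 45.6 to 64.2 CPM (log2 difference 1.94).

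**Figure D1:**
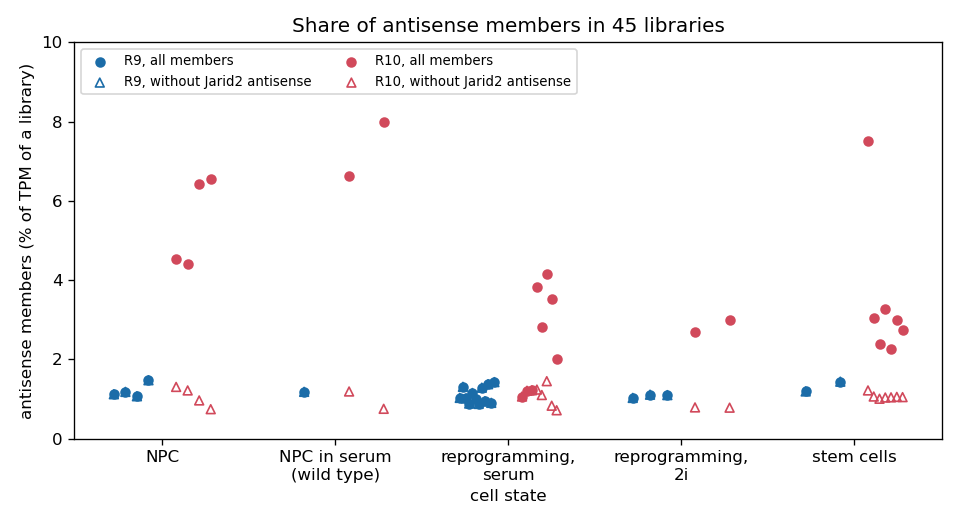
Share of the summed TPM of each library held by antisense members (y axis, percent), by cell state (x axis), with 1 point per library; filled circles are all members, open triangles leave out the antisense transcripts of Jarid2, blue is R9 and red R10. All R9 libraries lie between 0.876% and 1.48%, and the R10 libraries come down to 0.716% to 1.45% once Jarid2 antisense is left out.

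To see which antisense transcripts differ between the start and the end state, stem cells were compared with progenitors in R10. Transcripts that reached 1 TPM in 4 or more libraries were tested with limma on log2(TPM + 1), and a difference was called at an adjusted p under 0.05 and at least 1 on that scale. Of the 3432 members 905 passed this filter, and 291 of these were higher and 221 lower in stem cells. That is 32.2% and 24.4% of the members tested, beside 23.4% and 16.4% of all transcripts tested. The excess of rises depended on the processing, among the members and among all transcripts. With no filter 260 members were higher and 307 lower, beside 12688 and 12000 over all transcripts. Quantile normalization gave 240 and 246, beside 11282 and 11254 over all transcripts. Median centring gave 254 and 242, beside 12010 and 10882 over all transcripts. In either direction 56.6% of the members tested were called, beside 39.8% of all. A member that passed through 1 state alone had to differ: 248 of the called members were listed at 0 in all 4 progenitor libraries and 114 in all 7 stem cell libraries. The median difference was 0.18 over the members and 0.17 over all transcripts tested. In these bulk samples a lower share of cells that express a transcript and less RNA per cell cannot be told apart.

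The cell states carried their own markers. Summed CPM of 18 pluripotency genes was 23.8 to 38.0 in R10 progenitors and 12241 to 14865 in stem cells, while that of 14 neural progenitor genes was 6796 to 8663 and 112 to 202. Mesenchymal genes also differed, at 1917 to 2394 CPM in progenitors and 358 to 644 CPM in stem cells. The 6 numbered stem cell libraries and the day 18 libraries stood apart in transcripts that match only part of an annotated splice chain. These held 14.6% to 20.3% of their TPM and 7.84% to 12.9% in the other R10 libraries, among them all progenitors. Mitochondrial reads were 1.81% to 2.35% in the 6 numbered stem cell libraries, 0.153% to 1.11% in the progenitors and 0.124% in R1 without a number. With R1 without a number as the only stem cell library, 383 members were higher and 54 lower of 1767 tested, beside 9160 higher and 2689 lower of 105258 over all transcripts. Falls were thus fewer among all transcripts as well, with 1 library in the stem cell group and a filter of 1 library. Whether this grouping of libraries has a part in the calls was not tested further.

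The largest rise was that of Eif2b3_AS.G36618.7, which faces a subunit gene of the translation factor eIF2B. It stood at 666, 727, 781, 879, 903, 1219 and 1288 TPM in the stem cells and was listed at 0 in every R10 progenitor library. All stem cell libraries were thus above all progenitor libraries, with a difference of 9.81 (SE 0.19, adjusted p = 1.19e-12, limma). Differences against a group listed at 0 depend on the pseudocount of 1 and give no fold. The whole antisense gene was not at 0 in progenitors, with 11.4 to 29.0 CPM there and 123 to 243 CPM in stem cells.

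Slc2a3_AS.G44425.309 faces the glucose transporter gene GLUT3 and lies at chr6:122727824-122728564. It reached 239 to 1059 TPM in the stem cells (median 633) and was listed at 0 in the progenitors (difference 9.27, SE 0.34, adjusted p = 2.67e-10, limma). The antisense gene rose from 4.39 to 10.5 CPM in progenitors to 133 to 418 CPM in stem cells. Slc2a3 rose beside it, from 8.35 to 32.4 CPM to 322 to 974 CPM (log2 difference 4.99). Both strands of the locus separated the states without overlap.

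Cdc37_AS.G52256.5, facing the gene of an Hsp90 cochaperone for kinases, stood at 220 to 773 TPM in stem cells and at 0 in progenitors (difference 8.87). Its antisense gene was at 100 to 215 CPM against 19.8 to 21.5 CPM. Cdc37 itself was at 217 to 265 CPM against 193 to 248 CPM, which was not called (log2 difference 0.21, adjusted p = 0.0926, limma). Zmynd8_AS.G31288.16, facing a chromatin reader gene, was at 49.1 to 111 TPM against at most 1.13 TPM (difference 5.91), while Zmynd8 differed by 0.80 on the log2(CPM + 1) scale, under the size needed for a call.

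Other members rose with a sense gene that also rose. Morc1_AS.G20883.2 stood at 26.4 to 56.1 TPM in stem cells and was listed at 0 in progenitors (difference 5.31). Morc1, which silences transposons in the germ line, went from at most 0.574 CPM to 246 to 410 CPM (log2 difference 8.07). Hmga1b_AS.G10387.2936 was at 51.0 to 75.3 TPM in stem cells (difference 6.03), beside a log2 difference of 3.92 for Hmga1b, a chromatin protein gene. Cntnap2_AS.G42773.22 (42.4 to 137 TPM, difference 6.08) and Glt1d1_AS.G41131.55 (18.8 to 108 TPM, difference 5.56) were listed at 0 in all 4 progenitor libraries, with log2 differences of 2.02 and 3.44 for their sense genes. Gm6284_AS.G49705.212 was at 133 to 219 TPM in 6 stem cell libraries and at 2.49 in the seventh (difference 6.60).

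Among the falls, Sox9_AS.G9947.20 was the largest. Sox9 is a transcription factor of neural stem cells and glia. The antisense transcript, at chr11:112785144-112786174, stood at 487, 504, 553 and 770 TPM in the progenitors and was listed at 0 in all 7 stem cell libraries (difference -9.15, SE 0.20, adjusted p = 2.35e-12, limma). Its gene had 197 to 328 CPM in progenitors and at most 1.49 CPM in stem cells. Sox9 had 71.2 to 115 CPM and at most 0.747 CPM (log2 difference -6.14). The antisense gene thus had more reads than Sox9 in every R10 progenitor library. In R9 progenitors the transcript was at 48.2 to 120 TPM, and it was again listed at 0 in both stem cell libraries (difference -6.25).

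Ncan_AS.G50101.438 and Lmo4_AS.G34512.9 fell with their sense genes. The first faces neurocan, a proteoglycan of brain matrix, and went from 73.6 to 111 TPM to 0 in every stem cell library (difference -6.58), while Ncan went from 181 to 330 CPM to at most 0.747 CPM. The second faces a LIM-domain cofactor gene and went from 43.2 to 81.2 TPM to 0 (difference -5.93), while Lmo4 went from 388 to 485 CPM to 1.55 to 17.2 CPM. Ncam1_AS.G52961.19 (difference -5.87) and Hip1_AS.G41348.187 (difference -5.75) fell beside log2 differences of -3.38 for Ncam1, a neural adhesion molecule, and -2.85 for Hip1, an endocytosis adaptor.

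For several members the transcript fell to 0 while its antisense gene kept reads. The sources used here do not say whether transcripts were assigned in the same way in all sets of libraries, so a transcript listed at 0 is not shown to be absent where its gene has reads. Hbs1l_AS.G4106.4 went from 256 to 388 TPM to 0 (difference -8.42), while its antisense gene fell from 77.8 to 109 CPM to 7.25 to 66.1 CPM (log2 difference -2.82). Fnbp1_AS.G28158.30 went from 69.3 to 211 TPM to 0 (difference -7.04), and its antisense gene fell from 68.3 to 193 CPM to 29.6 to 52.3 CPM (-1.60). Kdm6b_AS.G8003.41, which faces a demethylase of the Polycomb mark on histone H3, went from 198 to 368 TPM to 0 (difference -7.98), and its antisense gene fell from 45.9 to 79.7 CPM to 6.27 to 44.1 CPM (-2.18). In mt-Nd2_AS.G55235.344 the transcript fell from 23.8 to 175 TPM to 0 (difference -6.17) while its gene was not called, at 8.03 to 34.7 CPM in progenitors and 6.35 to 57.7 CPM in stem cells. This transcript was not called with R1 without a number as the only stem cell library (difference -6.17). Tcf7l1_AS.G43305.5 fell from 34.5 to 102 TPM to 0 (difference -5.79), and Tcf7l1, a repressor in the Wnt pathway, was not called (log2 difference 0.46).

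The 512 called members belonged to 412 antisense genes. For 439 of the 512 the antisense gene was tested as well. It was called in the same direction for 313, in the other direction for 13 and not called for 113. The sense gene was tested for 413 of the called members. It was called in the same direction for 191, in the opposite direction for 54 and not called for 168. No such counts were made for other called transcripts, so these are a description of the members alone.

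**Figure D2:**
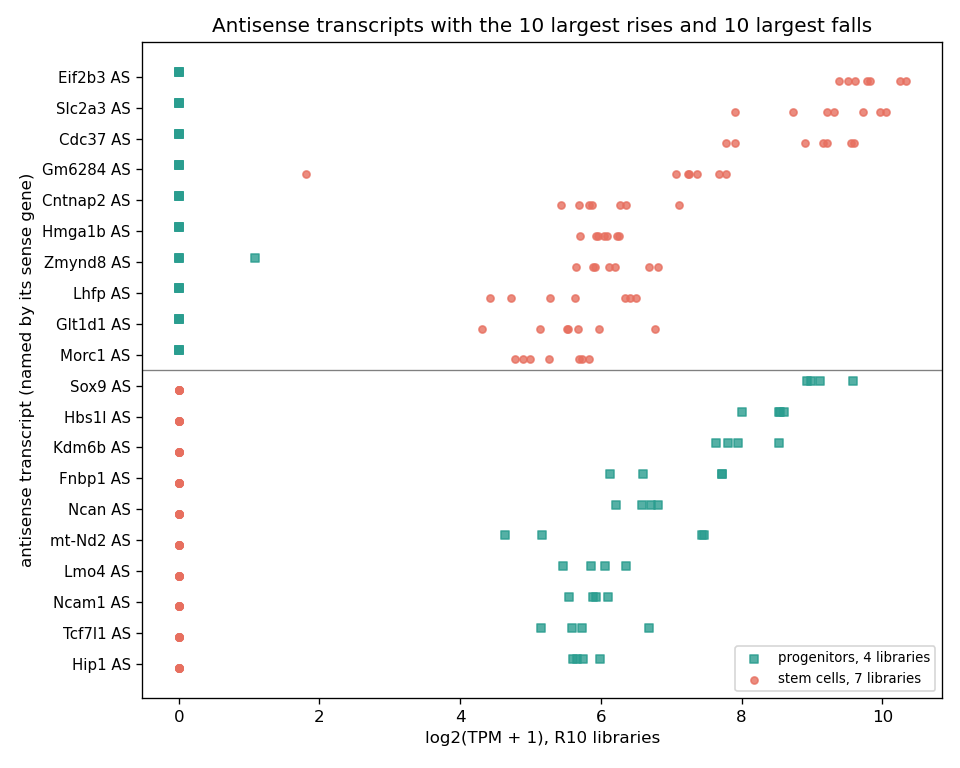
Levels of the 10 antisense transcripts with the largest rises (upper rows) and the 10 with the largest falls (lower rows) in R10, as log2(TPM + 1) on the x axis, with 1 point per library; squares are the 4 progenitor and circles the 7 stem cell libraries. In every row the states do not overlap; Gm6284 antisense has 1 stem cell library near the progenitors, at 2.49 TPM.

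In R9, with 4 progenitor and 2 stem cell libraries, 233 members were higher and 74 lower of 1087 tested. That is 21.4% and 6.81%, beside 9.75% and 3.66% of all transcripts tested (13.4% in either direction). Median centring gave 129 higher and 60 lower, with 2397 and 1865 over all transcripts. The median difference was 0.22 over the members and 0.08 over all transcripts. Without the O4G library, with 1 stem cell library left, these medians were -0.37 and -0.35. Of the R10 calls 326 were tested in R9, and 293 of these had the same sign there. Called in both were 196 members, 60.1% of those R10 calls and 88.3% of the 222 R9 calls tested in R10. Of these 195 moved in the same direction and 1 in the opposite direction. Agreement of the chemistries was not counted over all transcripts, so these counts do not set the members apart from other transcripts. All 20 members named above were called in R9 as well.

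The size of the difference was not the same in both chemistries for 153 of 1972 members tested for it, 7.76% beside 4.42% of all transcripts. Eif2b3_AS.G36618.7 reached only 40.9 and 96.4 TPM in the R9 stem cells, and its difference there was 6.00. The R10 difference exceeded the R9 difference by 3.82 (adjusted p = 4.3e-05, limma interaction). With no TPM in the progenitors of either chemistry, this value rests on the stem cell levels and the pseudocount. In mt-Nd2_AS.G55235.344 the R9 fall was larger, from 806 to 1201 TPM to 0 (difference -9.96).

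The lists of cell type and regulator genes held few tested members. These lists and all members were known from earlier results of these data, so their directions are a description. Of 6 tested members facing pluripotency genes 5 were higher and none lower in R10 stem cells, and in R9 all 9 tested were higher. Of all transcripts tested 23.4% were higher and 16.4% lower in R10, and 9.75% and 3.66% in R9, and these shares stand beside each list here. Nanog_AS.G44434.60 and Nanog_AS.G44434.72, facing a core pluripotency factor, rose by 3.04 and 3.20 beside 9.12 for Nanog. Prdm14_AS.G125.12 rose by 3.54, Tdh_AS.G16528.5 by 2.61 and Esrrb_AS.G12107.4 by 1.34, beside log2 differences of 5.66, 9.26 and 6.18 for the sense genes. Prdm14 and Esrrb are transcription factors of naive pluripotency and Tdh is a threonine dehydrogenase that mouse stem cells depend on.

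All 3 tested members that face epithelial genes rose. Cdh1_AS.G51228.6 rose by 5.13 and Cdh1_AS.G51228.8 by 1.12, beside 6.38 for Cdh1, the gene of E-cadherin. Cldn4_AS.G41304.255 rose by 2.87 beside 5.87 for Cldn4, a tight junction gene. All 3 members facing neural progenitor genes that were tested in R10 fell, while in R9 3 of 5 tested were lower and none higher. The R10 falls were those facing Sox9 and Ncan and that of Ptn_AS.G42563.16, which fell by 3.56 beside a fall by 9.50 for Ptn, a growth factor gene. Members facing chromatin genes were mixed, with 1 higher and 2 lower of 4 tested in R10 and 1 and 1 of 5 in R9. At Suz12, a core PRC2 subunit, Suz12_AS.G8557.1 had a difference of -3.21 and Suz12_AS.G8560.207 of +3.00, beside +1.53 for Suz12. Srsf6_AS.G31163.8, facing a splicing factor gene, fell by 4.71 while Srsf6 was not called (log2 difference 0.33). Nr2f2_AS.G46870.24, facing a nuclear receptor gene, fell by 2.12 beside a fall by 3.16 for Nr2f2. Of the astrocyte list 1 member was tested, Aldh1l1_AS.G43766.6. It was lower in R10 (difference -2.97), where Aldh1l1 was higher (log2 difference 1.95), and the 1 tested in R9 was lower too. Of the neuron list none was tested in R10, and the 1 tested in R9 was higher. With R1 without a number as the only stem cell library, the calls of Nanog_AS.G44434.72, Ptn_AS.G42563.16, Suz12_AS.G8557.1, Srsf6_AS.G31163.8 and Nr2f2_AS.G46870.24 were lost. The differences of Ptn_AS.G42563.16 (-3.56), Srsf6_AS.G31163.8 (-4.71) and Nr2f2_AS.G46870.24 (-2.12) were unchanged in that fit, while that of Nanog_AS.G44434.72 was 0.64 and that of Suz12_AS.G8557.1 was -1.73.

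By position, of 199 tested head-to-head members 50 were higher and 51 lower (50.8% called), against 174 and 111 of 467 within the sense gene (61.0%). Tail-to-tail members had 36 higher and 27 lower of 104 (60.6%). Members with an intron inside 1 sense exon had 43 higher and 80 lower of 259 (47.5%), with a median difference of -0.31. Those without had 239 higher and 130 lower of 597 (61.8%), with a median of 0.56. In R9 the medians had the same signs, and rises outnumbered falls in each class: members with such an intron had 40 higher and 33 lower of 371 (19.7% called, median -0.23), and those without had 181 and 39 of 645 (34.1%, median 0.36). Head-to-head members had 43 and 6 of 238 there (20.6%), against 121 and 44 of 512 within the sense gene (32.2%). In the promoter windows shown above, Eef2k_AS.G48078.2 went from 11.8 to 33.5 TPM in progenitors to 0 in stem cells (difference -4.64), Hrh1_AS.G44158.10 from 8.47 to 22.1 TPM to 0 (-3.81) and Fyn_AS.G4384.12 from 3.39 to 11.3 TPM to 0 (-2.69).

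To relate the strands, each antisense gene was set beside the gene it faces, both in CPM from the same table. At 573 loci both were tested in R10. Of all 671 antisense genes tested, 177 were higher and 141 lower in stem cells, 26.4% and 21.0%, beside 22.4% and 23.5% of all genes tested (45.8% in either direction). On the reads recovered from CPM, edgeR called 206 higher and 159 lower, beside 3920 and 3679 over all genes. The excess of rises turned with quantile normalization (139 higher, 153 lower), beside 3380 and 3470 over all genes. It also turned with only the O4G stem cells (152 and 172), beside 3251 and 3938. Median centring gave 206 and 114, beside 4196 and 3013. Both strands were called at 166 loci. They moved in the same direction at 145 of these (70 both higher, 75 both lower) and in opposite directions at 21. The differences of both strands had the same sign at 68.4% of the 573 loci, and Pearson's r across loci was 0.62. The loci share libraries, and r is across loci, not samples.

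Neighbouring annotated genes gave a lower share. Of 2211 adjacent annotated pairs with both genes called, 66.1% moved in the same direction, against 87.3% of the antisense-sense pairs. Among annotated genes that overlap on opposite strands the share was 74.3% of 218 pairs. The level of an antisense gene was a small part of that of the gene it faced. In the R10 progenitors its CPM was a median of 7.33% of the sense gene's CPM over 475 loci (quartiles 2.38% and 22.7%), and it exceeded the sense gene at 36 loci. In R10 stem cells the median was 8.10% and in R9 it was 8.96% and 12.6%. CPM, unlike TPM, carries no length correction, so this compares numbers of reads.

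Each locus was classed by its antisense member of highest mean TPM over all libraries. Of 178 loci where an intron of that member lay inside 1 sense exon, 56 had both strands called. Of these 55 moved in the same direction and 1 in the opposite (98.2%). Over all 178 the differences had the same sign at 78.1% (r = 0.78). At the 391 other placed loci 107 had both called, with 87 in the same and 20 in opposite directions (81.3%, r = 0.53). In R9 the counts were 43 and 1 with such an intron and 59 and 13 without. The antisense level was a median of 10.3% of the sense level with such an intron and 6.42% without, in R10 progenitors. Whether reads of the sense RNA were counted on the antisense strand at these loci was not tested.

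**Figure D3:**
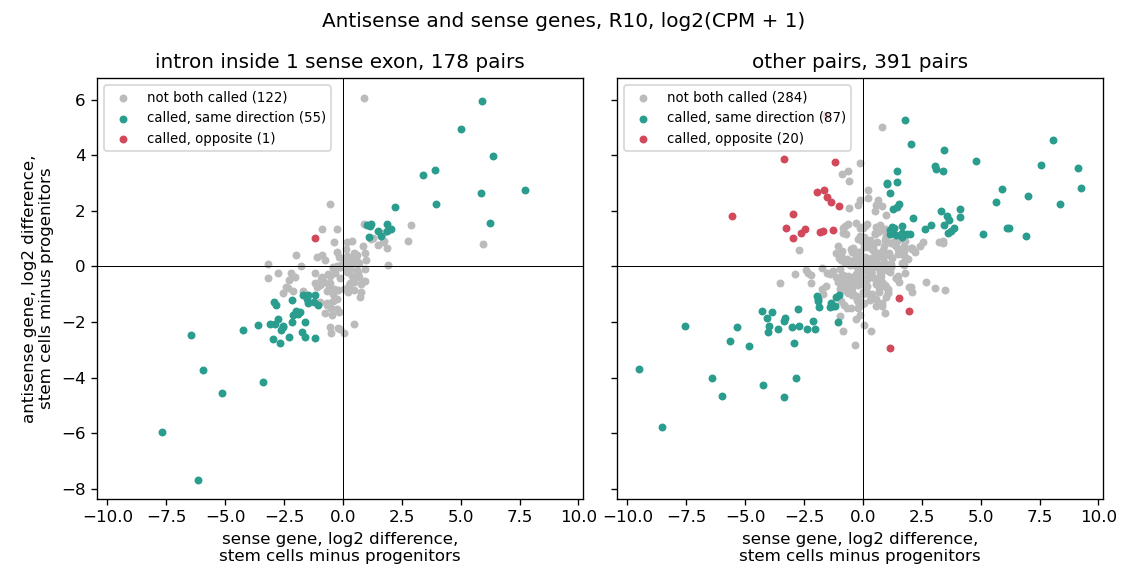
Difference of stem cells minus progenitors in R10, log2(CPM + 1), of the sense gene (x axis) and of the antisense gene (y axis), with 1 point per locus. Left, loci whose member of highest mean TPM has an intron inside 1 sense exon, right, the other placed loci. Of the loci with both strands called, 55 of 56 on the left and 87 of 107 on the right move in the same direction.

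The R9 libraries, which are separate libraries but perhaps not of separate cultures, were compared in the same way. Antisense genes had 122 higher and 84 lower of 685 tested, 17.8% and 12.3%, beside 17.6% and 18.4% of all genes tested (36.0% in either direction). At 116 loci both strands were called, 102 in the same direction and 14 in opposite directions (87.9% the same). The 102 became 63 without the R1 library and 65 with DESeq2, which called 112 antisense genes in place of 206. Of adjacent annotated pairs with both genes called 69.4% of 1530 moved in the same direction in R9, and of those that overlap on opposite strands 78.5% of 149. Of the 145 R10 loci with the same direction 113 were tested in R9, where 109 had the same sign on both strands and 70 were called so. Of the 21 opposite loci 15 were tested in R9, where 14 had opposite signs and 9 were called so. This agreement was not counted for adjacent annotated pairs. With R1 without a number as the only R10 stem cell library, 81 loci moved in the same and 6 in opposite directions.

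At the R10 loci that moved in opposite directions, the antisense gene was mostly the one that rose, at 18 of 21. In R9 it rose at 10 and fell at 4 of 14 such loci. All antisense genes tested also had more rises than falls, 177 and 141 in R10 and 122 and 84 in R9. In R10 that excess depended on the processing. The 6 R10 loci described here had the largest smaller difference of both strands, all lie within the sense gene, and all were also called in opposite directions in R9. Lhfp_AS.G32564.21, the only member of its gene, was listed at 0 in the R10 progenitors and at 20.5 to 89.2 TPM in the stem cells (difference 5.61). Its antisense gene had 0 reads in each of the 4 R10 progenitor libraries and 16 to 100 reads in the stem cells, or 6.20 to 24.6 CPM. Lhfp, a tetraspan membrane protein gene, was at 10.3 to 21.0 CPM in progenitors and at most 1.79 CPM in stem cells. The log2 differences were 3.86 (SE 0.35, adjusted p = 9.21e-08) and -3.37 (SE 0.32, adjusted p = 1.7e-07, limma).

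Ssh2_AS went from 3.81, 6.31, 12.9 and 14.9 CPM in R10 progenitors to 46.3 to 69.9 CPM in stem cells. Ssh2, a phosphatase that activates the actin regulator cofilin, went from 16.1 to 45.0 CPM to 5.82 to 8.22 CPM. Neither strand overlapped between the states, with log2 differences of 2.69 and -1.95. In R9 Ssh2_AS was at 21.5 to 29.0 CPM and then at 171 and 183 CPM, while Ssh2 was at 5.06 to 14.5 CPM and then at 1.86 and 2.84 CPM.

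Ntrk2_AS and Kirrel3_AS face neural receptor and adhesion genes. Ntrk2_AS had 0 reads in all R10 progenitor libraries and 1.04 to 5.51 CPM in stem cells (log2 difference 1.89), while Ntrk2, the BDNF receptor gene, fell from 7.91 to 15.9 CPM to at most 1.87 CPM (-2.99). Kirrel3_AS rose from 1.59 to 3.95 CPM to 7.30 to 17.0 CPM (1.82), and Kirrel3 fell from 38.4 to 109 CPM to at most 0.984 CPM (-5.55). Cd302_AS rose from at most 0.287 CPM to 3.28 to 9.68 CPM (2.73) while Cd302, a lectin receptor gene, fell from 27.0 to 84.1 CPM to 10.1 to 29.8 CPM (-1.65), with the lowest progenitor library inside the stem cell range. Aldh1l1_AS alone went the other way, from 1.15 to 4.83 CPM to at most 0.373 CPM (-1.62), while Aldh1l1, a folate enzyme and astrocyte marker, rose from 1.72 to 5.72 CPM to 10.3 to 21.0 CPM (1.95).

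**Figure D4:**
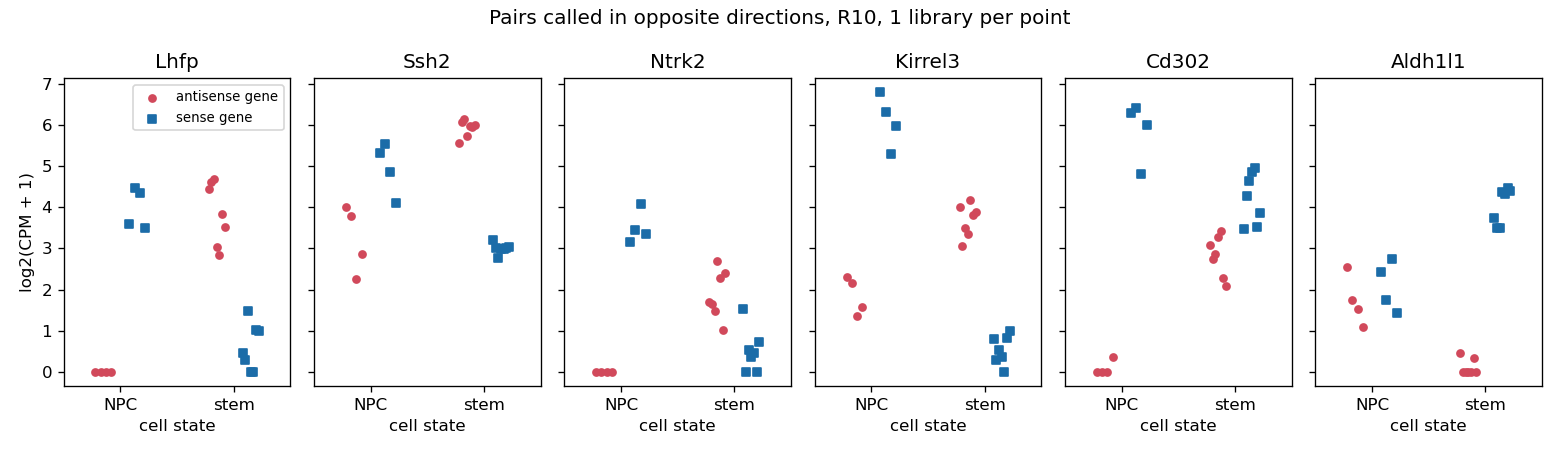
Levels of the antisense gene (circles) and the sense gene (squares), log2(CPM + 1) on the y axis, in the 4 progenitor (NPC) and 7 stem cell libraries of R10 on the x axis, with 1 point per library, at the 6 loci of opposite direction described. At Lhfp and Ntrk2 the antisense gene is at 0 in all progenitor libraries.

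The change of medium was examined in wild-type progenitors, which carry no factors. After 2 days in serum with LIF and doxycycline, 161 members were higher and 123 lower of 1015 tested in R10, with 2 libraries per group. That is 15.9% and 12.1%, beside 7.83% and 7.84% of all transcripts tested (15.7% in either direction). Without 1 of the 4 libraries the count ran from 0 to 448 (0 without progenitor library 2 or 3, 328 and 448 without serum library 2 or 3), so it rests on single libraries. With no filter on low values 9 were higher and 32 lower, beside 265 and 377 over all transcripts. Centring each library on its median gave 56 higher and 70 lower, beside 1102 and 1745 over all transcripts. That centring moved the median difference of all transcripts from 0.10 to -0.06. The medium, the doxycycline and the seeding cannot be told apart here.

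Hspb8_AS.G40670.10 was listed at 0 in both progenitor libraries and at 74.9 and 63.6 TPM in serum (difference 6.13, SE 0.31, adjusted p = 0.0115, limma). Hspb8, a small heat shock protein gene, went from 4.76 and 6.03 CPM to 639 and 966 CPM, and the antisense gene from at most 0.287 CPM to 25.1 and 28.3 CPM. Both strands rose without overlap.

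Other members were listed at 0 in 1 medium alone while their antisense gene had reads in both, so here too a 0 does not show absence. Ddit4_AS.G4736.4, facing an inhibitor of mTORC1, went from 0 in both libraries to 378 and 299 TPM (difference 8.40), but its antisense gene had 35.9 and 36.4 CPM before and 39.5 and 35.2 CPM after. Hbs1l_AS.G4106.4 fell from 369 and 256 TPM to 0 (difference -8.27) with its antisense gene at 109 and 77.8 CPM before and 132 and 63.6 CPM after. Kdm6b_AS.G8003.41 fell from 368 and 198 TPM to 0 (difference -8.08) with 79.7 and 45.9 CPM before and 105 and 48.4 CPM after. The remaining named fall was of a member with no sense symbol, which went from 277 and 234 TPM to 0 (difference -8.00).

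Over the R9 days, 8 members passed the moderated F test of limma, 1 higher and 7 lower, of 1837 tested (0.435%, beside 0.129% of all transcripts). Nptx1_AS.G10270.4, facing a synaptic pentraxin gene, stood at 130 TPM in OKMS and 119 TPM in OKS at day 0 and was listed at 0 in all 12 later libraries (adjusted p = 0.011). Its antisense gene fell from 49.8 and 42.2 CPM to at most 1.41 CPM, and Nptx1 from 95.6 and 105 CPM to at most 7.03 CPM. Both strands of this locus thus dropped between days 0 and 2.

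The transcripts of Gm13889, Adam10, Lmo4, Copz1, Fads1 and Tpt1 antisense were also listed at 0 in all 12 later serum libraries, while their antisense genes had reads in some or all of them. Gm13889_AS had 0 reads in 3 of the 12, and Adam10_AS and Lmo4_AS in 1 each. Lmo4_AS went from 18.8 and 15.2 CPM at day 0 to 1.23 and 1.44 CPM at day 20, and Fads1_AS from 45.8 and 25.3 CPM to 3.69 and 5.75 CPM. Copz1_AS, facing a coat protein gene of Golgi vesicles, kept 4.09 to 20.0 CPM in these libraries, beside 18.8 and 16.9 CPM at day 0. Tpt1_AS kept 2.26 to 16.0 CPM, beside 6.73 and 25.3 CPM. Both transcripts were above 0 in the R9 stem cells, Copz1_AS.G19554.12 at 44.6 and 81.8 TPM and Tpt1_AS.G16869.5 at 62.2 and 102 TPM. So were Adam10_AS.G53727.7 (25.2 and 19.8 TPM) and Fads1_AS.G26123.16 (19.3 and 31.6 TPM), but not the transcripts of Lmo4, Gm13889 and Nptx1 antisense. In the R9 reprogramming libraries in 2i-LIF, Tpt1_AS.G16869.5 was at 29.0, 60.1 and 76.4 TPM. Adam10_AS.G53727.7 was at 10.4, 9.29 and 6.89 TPM there, and the other falling transcripts were listed at 0. In the wild-type R9 library of day 2 in serum, Adam10_AS.G53727.7 was at 77.3 TPM, Lmo4_AS.G34512.9 at 49.5 TPM, Copz1_AS.G19554.12 at 48.0 TPM and Fads1_AS.G26123.16 at 25.6 TPM, while the transcripts of Gm13889, Tpt1 and Nptx1 antisense were listed at 0 there too. The rising member, Zfp282_AS.G42813.283, was at 0 until day 14 and at 57.8 and 27.5 TPM at day 20, with its antisense gene at 5.38 and 10.1 CPM at day 0 and 7.39 and 7.19 CPM at day 20. Nptx1_AS.G10270.4 alone among the 8 was called with each of the later days left out in turn. None of the 8 calls remained with a pseudocount of 0.25 in place of 1.

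At gene level the strands were followed over the 7 R9 days in each system. At 401 loci both genes had at least 1 CPM in at least 3 libraries of each system. The strands moved together, with Pearson's r of at least 0.7 in both systems, at 48 loci (12.0%) and against each other, at -0.7 or less, at 0. The median r was 0.43 in OKMS and 0.49 in OKS. Among 9241 adjacent annotated pairs 4.05% moved together and 1.19% against each other, with medians of 0.10 and 0.09. Of 1223 adjacent pairs that overlap on opposite strands 5.23% moved together and 0.736% against each other. Each r rests on 7 libraries of 1 series, so it is a description. Loci with an intron inside 1 sense exon, classed as above, moved together in 15.8% of 177, and the other placed loci in 9.05% of 221.

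The 5 loci with the highest r showed 3 kinds of course. Ahnak, Hspb8 and Meis2 were higher after induction than at day 0 and came down late. Ahnak_AS was at 0, 57.6, 87.6, 121, 80.2, 44.3 and 36.9 CPM in OKMS and at 0, 44.1, 202, 202, 201, 172 and 61.1 CPM in OKS, with Ahnak, a large scaffold protein gene, at 0 and 1.69 CPM at day 0 and at most 86.8 CPM later. Hspb8_AS was at 0 at day 0 in both systems, at 23.7 CPM in OKMS and 49.5 CPM in OKS at day 2, and at 0 and 2.87 CPM at day 20, while Hspb8 rose to 546 and 761 CPM at day 2. The wild-type rise of Hspb8 in serum, described above, had no factors.

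Slc2a3 rose late, and at a different time in each system. Slc2a3_AS was at 21.5, 26.0, 37.6, 214, 565, 423 and 228 CPM in OKMS, with Slc2a3 at 43.1, 21.5, 41.7, 134, 568, 363 and 228 CPM. In OKS it was at 30.4, 9.36, 30.5, 20.1, 42.4, 55.4 and 466 CPM, with Slc2a3 at 13.5, 12.0, 24.8, 24.1, 40.2, 48.0 and 430 CPM. Both strands were thus high from day 6 in OKMS and at day 20 alone in OKS.

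Meis2_AS, facing a homeobox gene, was at 12.1 CPM in OKMS and 28.7 CPM in OKS at day 0, peaked at 83.5 CPM at day 4 in OKMS and 65.6 CPM at day 6 in OKS, and ended at 3.69 and 2.16 CPM. Meis2 was at 13.5 and 15.2 CPM at day 0, at most at 62.8 and 48.2 CPM, both at day 6, and at 1.23 and 2.16 CPM at day 20. At Marcks both strands were highest at day 0. Marcks_AS fell from 60.6 to 3.69 CPM in OKMS and from 77.6 to 10.8 CPM in OKS, while Marcks, an actin-binding kinase substrate gene, fell from 232 to 9.85 CPM and from 192 to 29.5 CPM. At Lhfp the strands were not parallel. Lhfp_AS was at 0 through day 6 in OKMS and then at 16.9, 15.8 and 14.8 CPM, and in OKS it was at 0 through day 10 and reached 23.0 CPM at day 20. Lhfp was at its highest before that, at 127 CPM at day 2 in OKMS and 259 CPM at day 10 in OKS, and ended at 2.46 and 15.8 CPM.

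**Figure D5:**
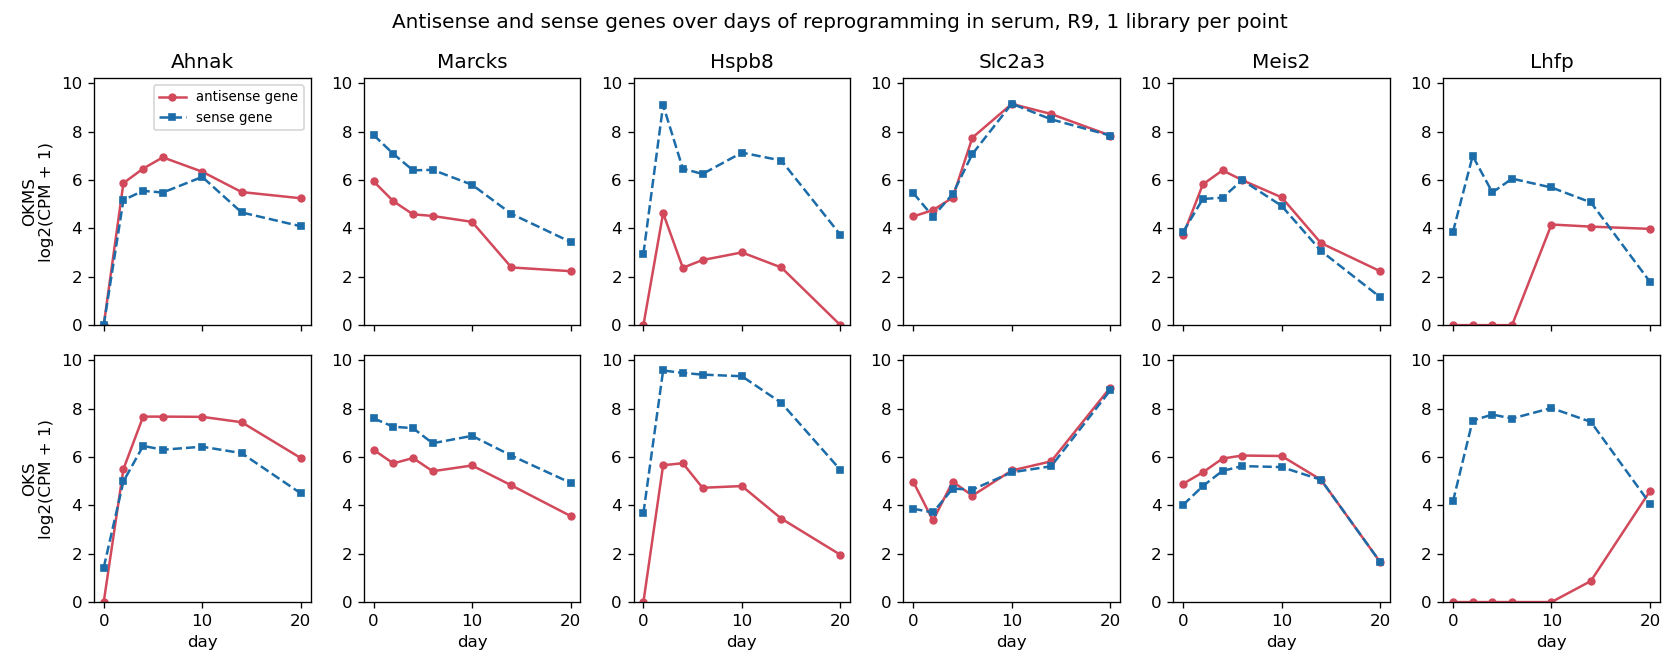
Antisense gene (solid line, circles) and sense gene (dashed line, squares) over days 0 to 20 of R9 reprogramming in serum (x axis), log2(CPM + 1) on the y axis, OKMS in the upper and OKS in the lower row, with 1 library per point and no error. The first 5 loci move together in both systems; Lhfp antisense appears at day 10 in OKMS and after day 10 in OKS, as Lhfp comes down.

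Members were also named by mean TPM over all 23 R10 libraries, the days of reprogramming included, and the 4 that come after Jarid2_AS are given here. Sod1_AS.G21247.86, facing superoxide dismutase, stood at 164 to 674 TPM in progenitors and 466 to 1061 TPM in stem cells (difference 1.18, adjusted p = 0.0157, limma), with overlap. Gnb1_AS.G38388.8, facing a G protein subunit gene, was at 362 to 1521 TPM and 146 to 434 TPM (difference -1.20, adjusted p = 0.0255), also with overlap. Arhgef2_AS.G33174.315 overlaps Arhgef2, a guanine nucleotide exchange factor gene, and starts 108 bases upstream of an annotated transcript start of that gene. It was at 65.1 to 110 TPM in progenitors and 111 to 305 TPM in stem cells, without overlap (difference 1.05), while Arhgef2 had a log2 difference of -1.27. Gm37350_AS.G31896.1 was at 398 to 713 TPM and 426 to 1325 TPM (difference 0.01), which was not called.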

How the data were processed

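Long-read cDNA libraries of 45 samples were aligned to mm10 with minimap2 2.24-r1122, per the submitters' processing notes. The deposited gene values are CPM and the deposited transcript values TPM, both in tables named after IsoQuant. The deposited classification gave each transcript's category, length, exons, CAGE distance and percent of A after its end. Other versions are not given in the sources used here. All CPM values above 0 were whole reads within 0.02, which gives depth; TPM keeps none. Of the gene CPM columns, 13 match no sample and were not used.

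Differences were fitted over whole tables in R 4.3.3 with limma 3.58.1 (lmFit, eBayes with trend, two-sided, Benjamini-Hochberg) on log2(value + 1), with edgeR 4.0.16 and DESeq2 1.42.0 on recovered reads as alternatives. Features needed 1 TPM or CPM in as many libraries as the smaller group. Fits were tested on simulated data. Positions used GENCODE exons and RefSeq windows of GRCm38. The 3432 members, the lists and the tests were chosen with earlier results of these data known. Named were the 10 largest rises and 10 largest falls in R10 with 1 transcript per antisense gene, the 6 opposite pairs of largest smaller difference, the 8 time course calls of smallest p, the 3 largest medium rises and falls, the 5 highest in R10, called members facing a listed gene, and the 5 pairs of highest smaller r over days. A medium rise that this rule named is not reported here.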

Additional observations from a re-analysis of the deposited data

Results flagged for a closer look

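For 10 named members the change differed in size between the chemistries, by a limma interaction of chemistry and state adjusted over all transcripts. The R10 difference of stem cells minus progenitors exceeded that in R9 by 3.82 for Eif2b3_AS.G36618.7 (adjusted p = 4.3e-05) and by 3.79 for mt-Nd2_AS.G55235.344 (adjusted p = 0.00597), the latter because the R9 fall was larger. The R10 minus R9 value was -1.48 for Hmga1b_AS.G10387.2936, whose rise was smaller in R10. It was -2.91 for Sox9_AS.G9947.20, -1.47 for Hbs1l_AS.G4106.4, -3.04 for Kdm6b_AS.G8003.41, -2.14 for Fnbp1_AS.G28158.30, -2.23 for Ncan_AS.G50101.438, -2.59 for Ncam1_AS.G52961.19 and -1.99 for Tcf7l1_AS.G43305.5, whose falls were larger in R10. These 10 kept the same sign in both chemistries. Sox9_AS.G9947.20 and mt-Nd2_AS.G55235.344 had no TPM in the stem cells of either chemistry. Their values thus rest on the progenitor levels and the pseudocount of 1. Eif2b3_AS.G36618.7 had no TPM in the progenitors of either chemistry, so its value rests on the stem cell levels and that pseudocount.

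Single libraries stood apart from their group at 4 named members. The number of groups examined is not given here, so these cannot be set against chance and are a description. Gm6284_AS.G49705.212 was at 2.49 TPM in 1 R10 stem cell library and at 133 to 219 TPM in the others. Cntnap2_AS.G42773.22 was at 137 TPM in 1 R10 stem cell library and at 42.4 to 81.3 TPM in the others. Zmynd8_AS.G31288.16 was at 1.13 TPM in 1 R10 progenitor library and at 0 in the others. Hbs1l_AS.G4106.4 was at 256 TPM in 1 R10 progenitor library and at 369 to 388 TPM in the others.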

How the results depend on the processing

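The value after each result is the number of members or loci called. With a minimum of 5 in place of 1, fewer features were tested: R10 transcripts went from 512 to 187, R9 transcripts from 307 to 181, the medium comparison from 284 to 151, R10 genes from 318 to 134, R9 genes from 206 to 130, R10 loci of the same direction from 145 to 63 and of opposite direction from 21 to 10, and the time course from 8 to 13. For the following the cause was not tested. Median centring gave 189 for R9 transcripts and 126 for the medium comparison, which gave 41 with no filter. DESeq2 gave 112 R9 genes and 65 same-direction R9 loci of 102. A pseudocount of 0.25 left 0 time course calls. Only R1 without a number left 81 same-direction and 6 opposite loci; this choice for loci, and the shares without Jarid2 or mitochondrial antisense, were added after the data were seen. Leaving out libraries gave 475 to 521 R10 transcripts, 312 to 463 R9 transcripts (463 without the O4G library), 298 to 333 R10 genes, 167 to 220 R9 genes, 0 to 448 in the medium comparison, 137 to 155 and 18 to 25 R10 loci, 63 to 115 same-direction R9 loci (63 without the R1 library), and 5, 4, 2, 14, 4 and 1 time course calls without days 2, 4, 6, 10, 14 and 20. A threshold of 0.5 for r gave 119 loci together in place of 48, and 500 bases gave 478 head-to-head members in place of 801. The difference of Jarid2_AS.G13559.9 turned to 0.57 with only R1 without a number. Of 870 recomputed values of named members, 808 kept direction and call, 61 lost the call and 1 reversed.

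In the medium comparison replicate numbers 2 and 3 are shared. They do not mark a known pair (correlation of the deviations 0.17), and the replicate block gave 477 calls. Depth limits loci with few reads, such as Ntrk2_AS with 4 to 19 reads per stem cell library. Leaving out members with other than canonical introns, or with 60% A or more after the end, changed nothing, since no member had these.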
